A study of Arabidopsis thaliana with 24 samples.

Results

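The phytochrome-interacting factors (PIFs) of Arabidopsis thaliana and their relatives HFR1 and PIL1 were followed across 3 genotypes and 2 light levels in RNA-seq of fully expanded leaves. The 9 genes were taken by gene ID from the 34218 genes of the deposited table. They are PIF1 (AT2G20180), PIF3 (AT1G09530), PIF4 (AT2G43010), PIF5 (AT3G59060), PIF6 (AT3G62090), PIF7 (AT5G61270, listed there as BHLH72), PIF8 (AT4G00050, listed there as UNE10), HFR1 (AT1G02340) and PIL1 (AT2G46970). The genotypes were Col-0 (wild type), a line named BBX32-10, which over-expresses BBX32 (a B-box protein gene), and hy5-2, which carries a null allele of HY5 (a bZIP transcription factor gene). BBX32-10 and hy5-2 were each represented by 1 line. All plants were 35 days old and had grown in short days at 150 µmol photons per square metre per second. Controls stayed at that light (low light, LL), and the others received white LED light of 1100 µmol per square metre per second for 3.5 h (high light, HL), starting shortly after dawn. Each of the 6 groups held 4 libraries, each from a different plant, 24 in all. The study asked whether over-expression of BBX32 and loss of HY5 affect similar sets of genes in short-term HL.

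PIFs are basic helix-loop-helix (bHLH) transcription factors that accumulate in darkness and shade and promote elongation growth. Light-activated phytochromes bind them, after which kinases phosphorylate them and ubiquitin ligases mark them for degradation. HFR1 and PIL1 are bHLH proteins that pair with PIFs and keep them from DNA. HY5 acts largely against the PIFs in light responses and binds DNA elements with an ACGT core, among them the G-box CACGTG that PIFs bind too. BBX32 is known as a repressor of light responses in seedlings. What was measured here is transcript abundance, not PIF protein.

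The 250 bases before the annotated start of 3 members (TAIR10.1, read 5′ to 3′ on the strand of the gene) are shown because in HL in Col-0 and hy5-2 PIF4 and PIF5 fell while PIF8 rose. Capitals mark the matches to a G-box (CACGTG) or to an ACGT core on either strand.
PIF8, chr4:17389-17638 (+): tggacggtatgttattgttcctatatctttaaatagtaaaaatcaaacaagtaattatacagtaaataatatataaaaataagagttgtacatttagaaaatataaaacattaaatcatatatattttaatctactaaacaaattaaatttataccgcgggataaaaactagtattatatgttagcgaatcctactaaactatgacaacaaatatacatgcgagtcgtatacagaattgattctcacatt
PIF4, chr2:17885851-17886100 (+): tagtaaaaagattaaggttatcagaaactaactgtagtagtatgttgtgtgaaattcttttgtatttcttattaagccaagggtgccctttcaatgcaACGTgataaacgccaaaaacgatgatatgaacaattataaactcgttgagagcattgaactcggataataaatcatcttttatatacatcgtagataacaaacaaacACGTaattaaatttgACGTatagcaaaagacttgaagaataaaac
PIF5, chr3:21830838-21831087 (-): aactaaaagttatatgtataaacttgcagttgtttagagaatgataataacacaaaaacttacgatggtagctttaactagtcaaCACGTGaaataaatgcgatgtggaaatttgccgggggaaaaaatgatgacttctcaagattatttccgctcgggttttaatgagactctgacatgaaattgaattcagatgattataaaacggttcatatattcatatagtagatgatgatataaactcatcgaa
No G-box, no PBE-box (CACATG, another element bound by PIFs) and no ACGT was found in the PIF8 window, nor in the 1000 bases before its start. PIF4 held ACGT at -152, -45 and -30 from its start. PIF5 held 1 G-box at -165, which includes the ACGT at -164. PIF1 and PIF7, not shown, also fell in HL in Col-0 and hy5-2. PIF1, like PIF8, held none of the motifs within 250 or 1000 bases. PIF7 held none within 250 bases, and 1 PBE-box and 3 ACGT within 1000 bases. Thus genes that fell were found with and without these letters. Among 32546 gene starts, 5.9% had a G-box, 11.2% a PBE-box and 42.8% an ACGT within 250 bases. Within 1000 bases the shares were 14.1%, 37.9% and 84.4%. These matches describe letters only, and binding was not measured.

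The libraries held 35408723 to 49341933 fragments each, as recovered from the steps of the FPKM values (fragments scaled to transcript length and library total). The targeted genes followed the labels. BBX32 was at 2.27 to 16.6 FPKM in Col-0 and hy5-2 libraries and at 364 to 1049 FPKM in BBX32-10 libraries. HY5 was at 0.196 to 0.929 FPKM in hy5-2 and at 6.26 to 46.5 FPKM elsewhere. The lowest BBX32 value of the line, 364 FPKM, was in replicate 1 of BBX32-10 HL. On the second principal component of all tested genes that library was at -10.9, against 20.0 to 33.9 for the other libraries of its group, so the tests of the 7 members that passed the filter described below are, for BBX32-10 in HL, also given without it where they are discussed. The mesophyll markers RBCS1A, CAB3 and RBCS3B summed to 22079 to 25387 FPKM in BBX32-10 LL and 18456 to 24966 in BBX32-10 HL, below the 25494 to 28828 and 24996 to 31261 FPKM of Col-0. In hy5-2 they summed to 27410 to 31873 in LL and 31291 to 35732 in HL, above all BBX32-10 libraries. The phloem markers SUC2 and APL went the other way in BBX32-10, with sums of 109 to 127 FPKM in LL and 83.5 to 121 in HL, against 67.4 to 91.7 and 49.8 to 61.6 in Col-0 and 60.6 to 87.9 and 45.6 to 53.2 in hy5-2. The root hair marker EXPA7 and the seed marker OLEO1 were at 0 in all libraries, while the other gene of each list reached 0.0241 FPKM (COBL9, at 0 in 15 libraries) and 0.210 FPKM (CRA1, at 0 in 4). The shoot meristem and dividing cell markers (STM, KNAT1 and CYCB1;1) varied between libraries. In LL they summed to 0.135 to 0.835 FPKM in the wild type, to 0.155 to 1.07 in BBX32-10 and to 0.733 to 6.38 in hy5-2. After HL the sums were 0.365 to 5.85, 0.493 to 5.46 and 0.0276 to 3.94 FPKM, in the same order of genotypes. The epidermis and guard cell markers (ATML1, PDF1, MYB60, FAMA and KAT1) varied too. In LL they summed to 63.6 to 86.8 FPKM in Col-0, 54.5 to 89.9 in BBX32-10 and 75.0 to 147 in hy5-2. In HL they summed to 49.1 to 114, 44.4 to 129 and 46.7 to 129 FPKM, in that order. PDF1 alone ran from 3.46 to 102 FPKM over all libraries. The part of the mesophyll, phloem, meristem and epidermis markers in the results below was not tested. In whole leaves, fewer cells expressing a gene and less RNA per cell cannot be told apart.

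In HL the wild type lost transcripts of PIF1, PIF4, PIF5 and PIF7 and gained those of PIF8, while PIF3 stayed near its LL level. Values below are FPKM, which can be compared between genes because of the scaling to length. Changes are differences of log2(FPKM + 1) from limma, called at an adjusted p (Benjamini-Hochberg over all genes tested) under 0.05. Of the 9 genes, 7 passed the filter of at least 1 FPKM in at least 4 libraries, and PIL1 passed with exactly 4 such libraries. HFR1 and PIF6 did not pass. In Col-0, 1 of the 7 rose and 4 fell in HL, where 30.0% of all 17788 tested genes rose and 21.6% fell. In BBX32-10, 0 rose and 3 fell, against 10.7% and 8.85% of all genes, and without replicate 1 of BBX32-10 HL 0 rose and 2 fell, against 13.0% and 8.29%. In hy5-2, 1 rose and 4 fell, against 23.1% and 20.4%. The median change of the 7 genes was -0.73 for the wild type, -0.35 for BBX32-10 and -0.45 for hy5-2, beside 0.05, 0.02 and -0.0019 for all tested genes.

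Between genotypes, the members' counts in BBX32-10 in LL were near the shares of all genes. There, 2 of the 7 were higher and 2 lower in BBX32-10 than in Col-0, against 25.8% and 16.7% of all genes. Of the higher ones 1, PIL1, kept its call in only 2 of 8 fits without a library. PIL1 had fewer than 4 libraries at 1 FPKM outside its highest group. Listed genes like that were set aside below, but PIL1 was kept in the members' counts and medians. In HL, 2 were higher and 0 lower, against 10.9% and 12.7%. When replicate 1 of BBX32-10 HL was dropped, 5 were higher and 0 lower in HL, against 19.6% and 15.7% of all genes. Without replicate 4 of that group 1 was called, where 1228 of the 17788 tested genes were higher and 1671 lower. In hy5-2 in LL, 0 of the 7 were called, where 0.174% of all genes were higher and 0.197% lower. There 3 of the 7 had an unadjusted p under 0.05. The share of all genes at that threshold was not counted, so this count cannot be read as a trait of the members. Limma voom on the recovered fragments also called 0 of the 7, where 25 of all tested genes were higher and 30 lower. In hy5-2 in HL, 0 were higher and 1, PIF8, was lower, against 0.349% and 2.06%. The interaction asks whether the HL change of a line differs from that of Col-0. For BBX32-10, 2 members had a higher and 1 a lower HL change than Col-0, against 6.95% and 12.9% of all genes, or 3 and 1 against 11.8% and 15.3% without replicate 1 of BBX32-10 HL. For hy5-2, 0 had a higher and 1 a lower change, against 0.0281% and 0.624%. Both lines were compared with the same Col-0 libraries, so their differences from Col-0 are not independent.

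**Figure D1:**
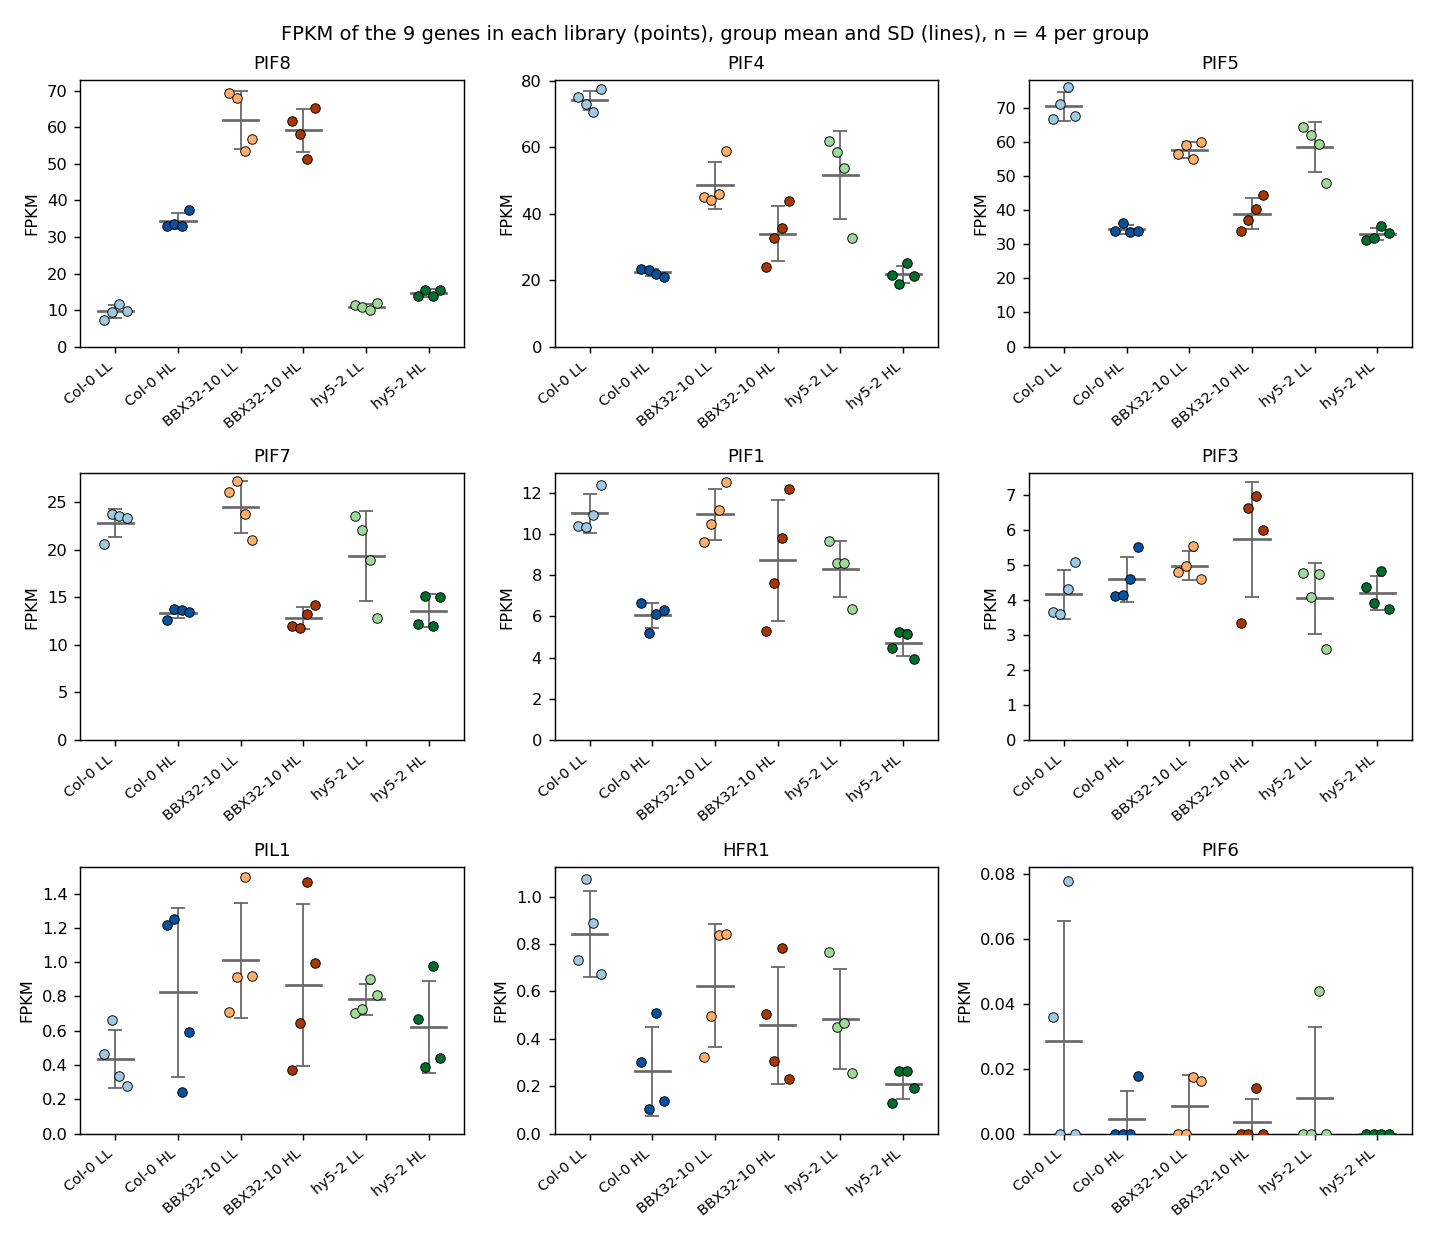
FPKM (y axis, separate scale per gene) of the 9 genes in each of the 24 libraries, with points for libraries and lines for the mean and SD of 4. PIF8 lies at 51.3 FPKM or more in every BBX32-10 library and at 15.5 or less in every hy5-2 library, while PIF4 and PIF5 are lower in HL than in LL in each genotype's mean.

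The balance between rises and falls over all genes depended on scaling, although no rescaling moved the median change by more than 0.084 on the log2 scale. After rescaling of the libraries, 4631 genes rose and 4907 fell in HL in Col-0, instead of 5340 and 3842. For BBX32-10 against Col-0 in LL the split was 3488 higher and 3831 lower, instead of 4589 and 2974, and for its interaction with HL 1862 and 1851, instead of 1236 and 2288. For hy5-2 against Col-0 in HL it was 94 and 164, instead of 62 and 366, and for the interaction of hy5-2 with HL 9 and 36, instead of 5 and 111.

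PIF8 (chromosome 4, 17639 to 20183, plus strand), a bHLH factor known to restrain responses to far-red light in seedlings, had the largest differences among the members. In Col-0 LL its 4 libraries held 7.37, 9.45, 11.8 and 9.84 FPKM, and in Col-0 HL 32.9, 33.7, 33.1 and 37.5 FPKM. The groups did not overlap, and the mean rose 3.57-fold, from 9.61 ± 1.81 to 34.3 ± 2.16 FPKM (SD, n = 4), a log2 change of 1.75 (SE 0.11, limma adjusted p = 5.75e-11). In BBX32-10 the libraries held 69.5, 68.0, 53.5 and 56.8 FPKM in LL and 61.8, 58.3, 51.3 and 65.3 FPKM in HL. All of these were above every Col-0 HL library, and LL and HL overlapped. The change in HL within BBX32-10 was -0.06 with a 95% interval of -0.29 to 0.16 (limma adjusted p = 0.741), and -0.08 without replicate 1 of HL (0.655). In hy5-2 the libraries held 11.3, 10.8, 9.95 and 11.8 FPKM in LL and 13.8, 15.5, 13.8 and 15.5 FPKM in HL. The groups did not overlap, and the rise of 0.39 (SE 0.11, limma adjusted p = 0.00637) was 1.33-fold.

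Between genotypes, PIF8 in LL was 6.45 times as high in BBX32-10 as in Col-0, a log2 difference of 2.58 (SE 0.11, limma adjusted p = 2.16e-13). In HL it was 1.72 times as high, a difference of 0.77 (limma adjusted p = 2.98e-05). Thus the line was above the wild type in both lights, and the wild type came closer to it in HL. In hy5-2, PIF8 in LL differed from Col-0 by 0.19 with an interval of -0.04 to 0.41 (limma adjusted p = 0.429). In HL it was 2.35-fold lower than in Col-0, a difference of -1.18 (SE 0.11, limma adjusted p = 5.62e-07). The HL change differed from that in Col-0 by -1.81 in BBX32-10 (SE 0.15, limma adjusted p = 2.18e-07) and by -1.36 in hy5-2 (SE 0.15, limma adjusted p = 6.00e-05). Each of these called differences of PIF8 was called again in every fit that left out 1 library of the groups compared. Without replicate 1 of BBX32-10 HL the difference from Col-0 in HL was 0.74 and the interaction -1.83. HY5 itself, whose wild-type level was 7.40 ± 0.899 FPKM in LL and 21.4 ± 3.29 after HL, stood at 36.9 ± 3.84 in BBX32-10 LL and 37.3 ± 6.73 in BBX32-10 HL. The level of HY5 in BBX32-10 thus lay above that of Col-0 in both lights, as did that of PIF8. Whether HY5 or BBX32 acts on PIF8 was not tested.

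**Figure D2:**
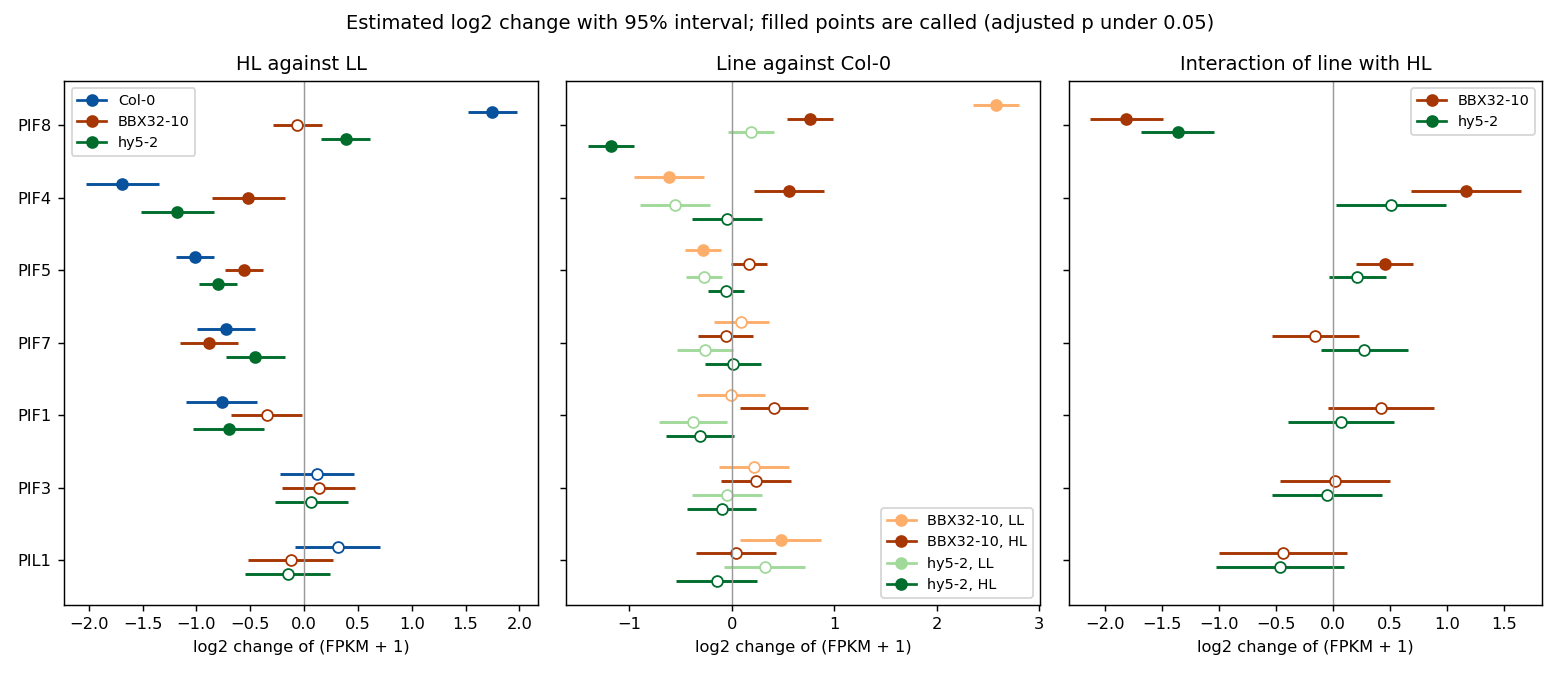
Log2 change of FPKM + 1 (x axis) with its 95% interval for the 7 tested genes (y axis), in panels for HL against LL within a genotype, for a line against Col-0 and for the interaction. Filled points are called at an adjusted p under 0.05, and PIF8 has the largest absolute change of each panel, 1.75 for HL in Col-0, 2.58 for BBX32-10 in LL and -1.81 for the interaction of BBX32-10.

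PIF4 (chromosome 2, 17886101 to 17889087, plus strand), a promoter of hypocotyl and petiole elongation in warmth and shade, was the most abundant member in Col-0 LL together with PIF5. In Col-0 its libraries held 75.2, 73.2, 70.7 and 77.4 FPKM in LL and 23.3, 23.1, 21.9 and 21.1 FPKM in HL. These groups were far apart, and the mean fell 3.32-fold, a change of -1.69 (SE 0.16, limma adjusted p = 2.63e-08). In BBX32-10 the libraries held 45.1, 44.0, 46.0 and 59.0 FPKM in LL and 24.0, 32.6, 35.7 and 44.0 FPKM in HL. The LL libraries all lay below those of Col-0 LL, and the highest HL library stood just under the lowest LL library, both near 44.0 FPKM. In hy5-2 the libraries held 61.8, 58.5, 53.9 and 32.6 FPKM in LL and 21.7, 18.9, 25.1 and 21.2 FPKM in HL. All LL libraries of hy5-2 lay below those of Col-0 LL, replicate 4 by most, and the HL libraries overlapped those of Col-0.

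The fall of PIF4 in HL was -1.18 in hy5-2 (SE 0.16, limma adjusted p = 6.30e-06) and -0.52 in BBX32-10 (SE 0.16, limma adjusted p = 0.028). The latter held in 5 of 8 fits that each dropped 1 library. Without replicate 1 of BBX32-10 HL it was -0.37 (limma adjusted p = 0.102), without replicate 2 of BBX32-10 HL -0.51 (0.0625) and without replicate 4 of BBX32-10 LL -0.42 (0.0982), and it was not called when only the libraries compared were fitted (0.0863). Against Col-0, PIF4 was lower in BBX32-10 in LL by -0.61 (SE 0.16, limma adjusted p = 0.00473) and higher in HL by 0.56 (SE 0.16, limma adjusted p = 0.0163). The difference in HL was 0.43 without replicate 4 of BBX32-10 HL and then not called (limma adjusted p = 0.0817), nor was it with only the libraries compared (0.0527). PIF4 thus lay on opposite sides of the wild type in the 2 lights, and the interaction of 1.17 (SE 0.23, limma adjusted p = 0.00121) held in 16 of 16 fits that each dropped 1 library. Leaving that replicate 1 out, the difference in HL was 0.71 and the interaction 1.32. For hy5-2 the interaction was 0.51 with an interval of 0.03 to 0.99 (limma adjusted p = 0.385), and in LL PIF4 differed from Col-0 by -0.55 (limma adjusted p = 0.145). Without replicate 4 of hy5-2 LL the difference was -0.35 (limma adjusted p = 0.341) and the interaction 0.30 with an interval of -0.08 to 0.69 (0.478).

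PIF5 (chromosome 3, 21827905 to 21830837, minus strand), which shares roles in growth and leaf ageing with PIF4, followed a similar pattern at a smaller size. In Col-0 its libraries held 66.7, 71.1, 75.9 and 67.6 FPKM in LL and 33.8, 36.2, 33.5 and 33.9 FPKM in HL. In BBX32-10 they held 56.5, 59.2, 55.0 and 59.9 FPKM in LL and 33.9, 37.2, 40.4 and 44.4 FPKM in HL. In hy5-2 they held 64.4, 62.0, 59.3 and 48.0 FPKM in LL and 31.3, 31.9, 35.5 and 33.3 FPKM in HL. LL and HL did not overlap in any genotype. The fall in HL was -1.01 in Col-0 (SE 0.09, limma adjusted p = 3.80e-09), -0.56 in BBX32-10 (limma adjusted p = 8.38e-05) and -0.80 in hy5-2 (limma adjusted p = 2.25e-07). Dropping replicate 1 of BBX32-10 HL, that of BBX32-10 was -0.50 (limma adjusted p = 0.000281). The BBX32-10 LL libraries all lay below those of Col-0 LL, by -0.28 (SE 0.09, limma adjusted p = 0.0107). In HL the difference was 0.17 with an interval of -0.01 to 0.35 (limma adjusted p = 0.154), and 0.23 without replicate 1 of BBX32-10 HL (0.0366). The interaction was 0.45 for BBX32-10 (SE 0.12, limma adjusted p = 0.0105), called in 16 of 16 fits that left out 1 library, and 0.52 without replicate 1 of BBX32-10 HL. For hy5-2 it was 0.21 with an interval of -0.04 to 0.46 (limma adjusted p = 0.515). In hy5-2 LL, PIF5 differed from Col-0 by -0.27 (limma adjusted p = 0.169), although the libraries did not overlap. Without replicate 4 of hy5-2 LL the difference was -0.18 (limma adjusted p = 0.368) and the interaction 0.12 (0.631). Over the 24 libraries PIF4 and PIF5 correlated with a Pearson r of 0.97 on the log2 scale, a description over libraries that share their groups.

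PIF7 (chromosome 5, 24638491 to 24640765, minus strand), a main activator of auxin synthesis in shade, fell in HL in all 3 genotypes. The Col-0 libraries held 20.6, 23.7, 23.6 and 23.3 FPKM in LL and 12.6, 13.8, 13.6 and 13.5 FPKM in HL. In BBX32-10 they held 26.0, 27.2, 23.7 and 21.0 FPKM in LL and 12.0, 11.8, 13.3 and 14.2 FPKM in HL. In hy5-2 they held 23.5, 22.1, 18.9 and 12.8 FPKM in LL and 12.2, 15.1, 11.9 and 15.0 FPKM in HL. LL and HL overlapped in hy5-2 only, through replicate 4 of LL. The changes were -0.73 in Col-0 (SE 0.13, limma adjusted p = 7.46e-05), -0.88 in BBX32-10 (limma adjusted p = 6.29e-05) and -0.45 in hy5-2 (limma adjusted p = 0.00746). The last was not called when only the hy5-2 libraries were fitted (0.0621), and without replicate 4 of hy5-2 LL it was -0.63 (4.81e-05). In BBX32-10 without replicate 1 of HL it was -0.85 (limma adjusted p = 0.000216). Against Col-0, PIF7 was not called in either line or light, with estimates between -0.26 and 0.10, nor was either interaction, at -0.15 for BBX32-10 (interval -0.54 to 0.23) and 0.27 for hy5-2 (interval -0.11 to 0.66). Leaving out replicate 4 of hy5-2 LL, the LL difference of hy5-2 was -0.08 instead of -0.26, and its interaction 0.10 with an interval of -0.18 to 0.38. Leaving out replicate 1 of BBX32-10 HL, the HL difference of that line was -0.03 and its interaction -0.13. The gene overlaps AT5G61260 over 318 bases on the opposite strand, which was at 0.0152 to 0.405 FPKM. Strand use is not given in the sources used here, so reads of the overlap cannot be told apart.

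PIF1 (chromosome 2, 8704024 to 8707009, minus strand), a repressor of seed germination and of chlorophyll synthesis in darkness, fell in HL in Col-0 and hy5-2. In Col-0 its libraries held 10.4, 10.3, 10.9 and 12.4 FPKM in LL and 6.63, 5.21, 6.10 and 6.29 FPKM in HL. In hy5-2 they held 9.65, 8.57, 8.60 and 6.37 FPKM in LL and 4.47, 5.24, 5.16 and 3.95 FPKM in HL. Neither pair of groups overlapped, and the changes were -0.77 in Col-0 (SE 0.16, limma adjusted p = 0.000353) and -0.70 in hy5-2 (SE 0.16, limma adjusted p = 0.0012). In BBX32-10 the libraries held 9.62, 10.5, 11.2 and 12.5 FPKM in LL and 5.28, 7.63, 9.78 and 12.2 FPKM in HL. The HL libraries of BBX32-10 were the most scattered of the 6 groups, and the change was -0.35 with an interval of -0.68 to -0.02 (limma adjusted p = 0.133). Single libraries of BBX32-10 HL moved it both ways, to -0.15 without replicate 1 (limma adjusted p = 0.458) and to -0.51, then called, without replicate 4 (0.018). Against Col-0 in HL, PIF1 in BBX32-10 differed by 0.41 (limma adjusted p = 0.0639), or by 0.39 and just called with rescaled libraries (0.0496). Without replicate 1 of BBX32-10 HL this difference was 0.60 (limma adjusted p = 0.00166) and the interaction 0.61 (limma adjusted p = 0.0169), instead of 0.42 (0.202). In hy5-2, PIF1 differed from Col-0 by -0.38 in LL (limma adjusted p = 0.283) and by -0.31 in HL (limma adjusted p = 0.375), the former -0.27 without replicate 4 of hy5-2 LL (0.531). PIF1 overlaps AT2G20170 over 334 bases on the opposite strand, which was at 0 in every library.

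PIF3 (chromosome 1, 3075768 to 3079654, plus strand), the founding member, which delays chloroplast development in dark-grown seedlings, was not called in any of the 9 comparisons. The wild-type libraries held 3.65, 3.61, 4.31 and 5.08 FPKM in LL and 4.11, 4.16, 4.61 and 5.51 FPKM in HL. In BBX32-10 they held 4.79, 4.98, 5.56 and 4.61 FPKM in LL and 3.34, 6.63, 6.97 and 6.02 FPKM in HL, and in hy5-2 4.77, 4.08, 4.75 and 2.60 FPKM in LL and 4.39, 3.91, 4.82 and 3.75 FPKM in HL. All groups overlapped with their counterparts in the other light. The HL change in Col-0 was 0.12 with an interval of -0.22 to 0.46 (limma adjusted p = 0.579). When replicate 1 of BBX32-10 HL was left out, the difference of that group from Col-0 HL was 0.44 (limma adjusted p = 0.0199), instead of 0.24 (0.319), and the HL change of BBX32-10 was 0.33 (0.0958).

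PIL1 (chromosome 2, 19295431 to 19297858, minus strand), a shade-induced inhibitor of PIFs, was close to the limit of the filter, reaching 1 FPKM in 2 libraries of Col-0 HL and 1 each of BBX32-10 LL and BBX32-10 HL. The Col-0 libraries held 0.466, 0.661, 0.336 and 0.275 FPKM in LL and 1.22, 1.25, 0.241 and 0.591 FPKM in HL. In BBX32-10 they held 0.712, 0.916, 1.49 and 0.917 FPKM in LL and 0.368, 0.647, 1.47 and 0.993 FPKM in HL. In hy5-2 they held 0.701, 0.727, 0.902 and 0.809 FPKM in LL and 0.669, 0.386, 0.978 and 0.444 FPKM in HL. The Col-0 LL libraries were below all LL libraries of both lines. PIL1 was called in 1 comparison, higher in BBX32-10 than in Col-0 in LL by 0.48 (SE 0.19, limma adjusted p = 0.0466). That call was made in 2 of 8 fits that left out 1 library, with adjusted p from 0.0663 to 0.157 in the other 6, when replicate 1, 3 or 4 of Col-0 LL or replicate 2, 3 or 4 of BBX32-10 LL was left out. It was also lost with no filter (0.0551), with rescaled libraries (0.052) and with the replicate number as a block (0.0611). Without replicate 3 of Col-0 HL, the rise of PIL1 in HL in Col-0 was 0.48 (limma adjusted p = 0.0365), instead of 0.31 (0.18). PIL1 passed the filter through libraries of Col-0 HL, BBX32-10 LL and BBX32-10 HL, and 0 of Col-0 LL. Its differences from Col-0 LL are therefore tied to the filter and are given as a description only.

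HFR1 (chromosome 1, 465616 to 467880, minus strand), the other PIF inhibitor, was counted from 6 to 56 fragments per library and was not tested with the filter. In Col-0 its libraries held 0.731, 1.08, 0.890 and 0.672 FPKM in LL and 0.300, 0.103, 0.510 and 0.136 FPKM in HL. Each HL library lay below every LL library. With no filter on low values the change was -0.55 (SE 0.13, limma adjusted p = 0.00199). In BBX32-10 the mean was 0.625 ± 0.259 FPKM in LL and 0.457 ± 0.249 in HL, and in hy5-2 0.484 ± 0.210 in LL and 0.211 ± 0.065 in HL. The same fit did not call HFR1 in the 2 lines, at -0.16 in BBX32-10 (limma adjusted p = 0.499) and -0.28 in hy5-2 (limma adjusted p = 0.11), nor either interaction (0.19 and 0.715).

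PIF6 (chromosome 3, 22988547 to 22990709, minus strand), known for a role in seed dormancy, was counted at or near 0 in these leaves. All 24 libraries together held 14 fragments of it, and the highest value was 0.0778 FPKM, in Col-0 LL replicate 3. A library at 0 allows up to 3 fragments, so differences in PIF6 were not detectable in these counts. On the opposite strand PIF6 overlaps AT3G62080 over 231 bases, which was at 3.22 to 5.57 FPKM. It also overlaps AT3G09745 there over 2083 bases, most of its annotated span, which was at 0 to 0.0768 FPKM. Strand use is not given, so reads of these overlaps cannot be told apart. Whether the overlaps lowered the counts of PIF6 was not tested.

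The order of the levels differed between groups. In Col-0 LL the means ran from PIF4 (74.1 FPKM) and PIF5 (70.4), whose libraries overlapped, through PIF7 (22.8), PIF1 (11.0) and PIF8 (9.61), the last 2 again overlapping, to PIF3 (4.17), HFR1 (0.843), PIL1 (0.435) and PIF6 (0.0284). In Col-0 HL, PIF5 (34.4) and PIF8 (34.3) overlapped at the top, above PIF4 (22.3). In BBX32-10 LL, PIF8 (62.0), PIF5 (57.6) and PIF4 (48.5) led, with overlaps between neighbours, and in BBX32-10 HL PIF8 (59.2) stood above PIF5 (39.0) without overlap. In hy5-2 PIF5 was first in both lights (58.4 and 33.0), and PIF8 was behind PIF7 in LL (11.0) and overlapped PIF7 in HL (14.6).

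As a share of the summed FPKM of the 7 PIFs, PIF8 in Col-0 made up 4.99% ± 0.806 with LL and 29.8% ± 1.37 with HL (SD, n = 4). It made up 29.7% ± 3.12 in BBX32-10 LL and 37.4% ± 4.95 in BBX32-10 HL, but 7.42% ± 1.96 in hy5-2 LL and 15.9% ± 1.25 in hy5-2 HL. The share in BBX32-10 LL, 26.6% to 32.8% over the libraries, thus overlapped the 29.0% to 31.9% of the wild type in HL. The share of PIF4 went the other way, from 38.6% ± 2.16 to 19.4% ± 1.14 in Col-0, and was 23.3% ± 3.15 in BBX32-10 LL. The summed level of the PIFs in Col-0 was 192 ± 5.92 FPKM in LL and 115 ± 2.33 after HL. It was 209 ± 9.14 and 159 ± 19.2 FPKM in BBX32-10, and 153 ± 27.0 and 91.8 ± 3.54 in hy5-2. These sums and shares are descriptions and were not tested.

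**Figure D3:**
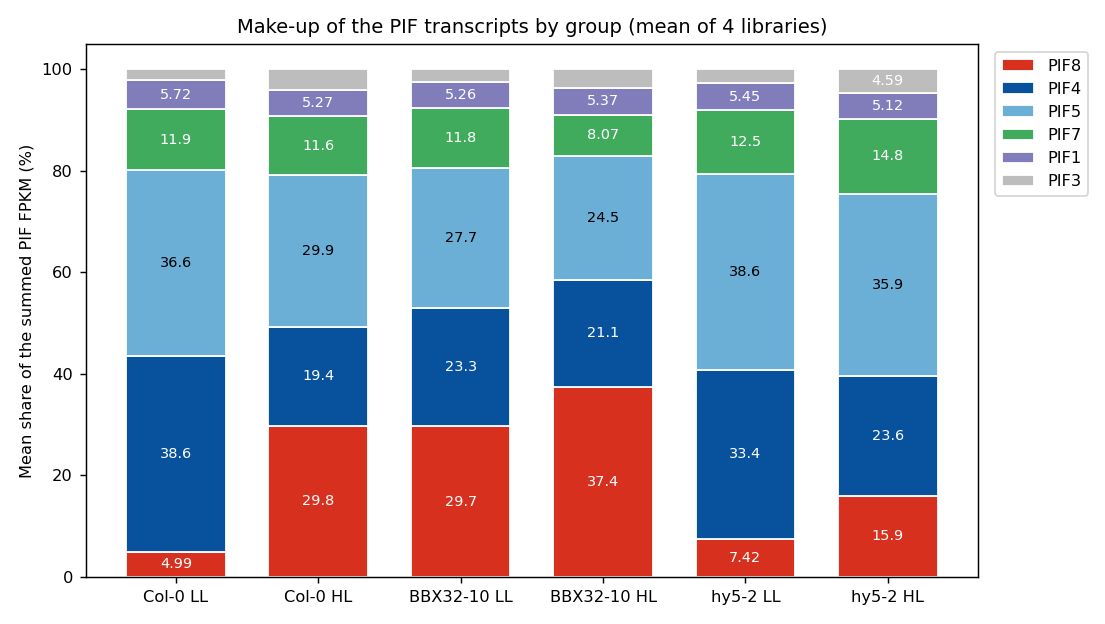
Mean share (%) of each PIF in the summed FPKM of the PIFs, 1 stacked bar per group of 4 libraries, with shares above 4% printed and PIF6 too low to be drawn. The share of PIF8 in LL is 4.99% for Col-0 but 29.7% for BBX32-10, and in HL it is 15.9% for hy5-2 against 29.8% for Col-0.

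For each tested member the 3 genes with the highest Pearson r of log2(FPKM + 1) over the 24 libraries were read, as a description of libraries that share their groups. For PIF8 these were DDB2 (AT5G58760, r 0.97), a DNA damage-binding protein, ATHOL1 (AT2G43910, r 0.96) and ECT8 (AT1G79270, r 0.96). DDB2 went from 4.02 ± 0.392 to 8.33 ± 1.19 FPKM with HL in the wild type. It was at 12.8 ± 0.914 and 12.2 ± 1.97 FPKM in BBX32-10, and at 4.63 ± 0.342 and 4.75 ± 0.799 FPKM in hy5-2, for LL and HL. DDB2 was highest in BBX32-10 in both lights, as PIF8 was, a likeness that follows from its choice by correlation with PIF8. For PIF4 they were VTE5 (r 0.98), a phytol kinase of vitamin E synthesis, the transcription factor gene RAV2 (r 0.97) and RZPF34 (r 0.96). RAV2 was at 15.0 ± 2.13 FPKM in wild-type LL, 6.23 ± 1.25 in BBX32-10 LL and 6.55 ± 1.15 in hy5-2 LL, and at 0.928 ± 0.186, 1.91 ± 1.19 and 0.630 ± 0.232 in HL. For PIF5 they were CAO (r 0.98), which makes chlorophyll b, AT1G54820 (r 0.98) and BGAL6 (r 0.98). For PIF7 they were RAP2.7 (r 0.93), SGRL (r 0.91) and PBL21 (r 0.90), and for PIF1 PATL3 (r 0.96), AT5G44530 (r 0.95) and WNK1 (r 0.95). PIF3 and PIL1 had weaker leaders, AT4G10050 (r 0.87) and PXC3 (r 0.83).

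Around the PIFs, 7 lists of pathway genes were read by counts of calls, as descriptions without a test of the list. The shares of all tested genes called, given beside each count, are the background against which it is read. Of 18 shade and auxin genes that PIFs are known to activate, 9 passed the filter. Among them, IAA29 passed only through Col-0 LL. It was at 1.95 to 2.79 FPKM there and reached 1 FPKM in 1 other library, of hy5-2 LL, so its differences from Col-0 LL follow from the filter and are not used here. Of the other 8, 0 rose and 3 fell in HL in Col-0, against 30.0% and 21.6% of all genes, with a median change of -0.45 beside 0.05. The auxin response repressor gene IAA19 fell by 1.31 (limma adjusted p = 2.5e-05), from 5.97 ± 0.731 to 1.81 ± 0.249 FPKM, and the homeobox gene HAT3 by 0.98 (0.00061). In hy5-2, 0 rose and 2 fell in HL, against 23.1% and 20.4%. In BBX32-10 1 rose and 1 fell, against 10.7% and 8.85%. The counts were the same without replicate 1 of BBX32-10 HL, against 13.0% and 8.29%.

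In LL, BBX32-10 had 1 of these 8 genes higher and 4 lower than Col-0, against 25.8% and 16.7% of all genes, with a median of -0.41 beside 0.10. PRE1, a small helix-loop-helix gene of elongation growth, was lower by -0.82 (limma adjusted p = 0.00076) and IAA19 by -0.62 (0.0233). TAA1, which makes the auxin precursor indole-3-pyruvate, was higher by 0.89 (limma adjusted p = 0.00025). In hy5-2 in LL, limma called 0 of the 8, where 0.174% of all genes were higher and 0.197% lower. Of the 8, 2 had an unadjusted p under 0.05. Without the share of all genes at that threshold, which was not counted, this count cannot be read as a trait of the list. In the interaction of BBX32-10 with HL, 1 had a higher and 0 a lower change than Col-0, against 6.95% and 12.9%. This was ATHB2, a shade-induced homeobox gene, at 0.46 (limma adjusted p = 0.048), or 0.52 without replicate 1 of BBX32-10 HL.

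The evening complex of ELF3, ELF4 and LUX is known to repress PIF4 and PIF5 transcription at night. All 3 genes rose in HL in Col-0, where 30.0% of all genes rose, LUX by 1.27 (limma adjusted p = 6.7e-08), ELF4 by 0.98 (0.00015) and ELF3 by 0.74 (3.9e-05). Whether these genes act on PIF4 or PIF5 in these leaves was not tested. LUX went from 2.33 ± 0.492 to 7.01 ± 0.786 FPKM. All 3 were also higher in BBX32-10 than in Col-0 in LL, where 25.8% of all genes were, by 0.77 (LUX, limma adjusted p = 7.2e-05), 0.48 (ELF4, 0.044) and 0.41 (ELF3, 0.011). In HL 1 of the 3 was called in BBX32-10, ELF4, lower than Col-0 by -0.97 (limma adjusted p = 0.00068), where 12.7% of all genes were lower. The HL change of ELF4 differed from that of Col-0 by -1.44 (limma adjusted p = 0.00064) and that of LUX by -0.69 (0.011), at -1.53 and -0.75 without replicate 1 of BBX32-10 HL. In hy5-2 2 rose in HL, against 23.1% of all genes, LUX by 1.02 (limma adjusted p = 2.5e-06) and ELF4 by 0.52 (0.028). ELF3 in hy5-2 HL was lower than in Col-0 HL by -0.59 (limma adjusted p = 0.0104).

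Of the 5 phytochrome genes, whose products bind the PIFs, 3 rose and 1 fell in HL in Col-0, against 30.0% and 21.6% of all genes. PHYE rose by 0.81 (limma adjusted p = 5.3e-08), from 10.2 ± 0.617 to 18.7 ± 1.14 FPKM, PHYB rose by 0.52 (1.7e-07), and PHYA fell by 0.42 (0.014). In BBX32-10 1 rose, PHYE by 0.28 (limma adjusted p = 0.018), and 0 fell, against 10.7% and 8.85%. The HL changes of PHYA, PHYE and PHYB in BBX32-10 differed from those in Col-0 by 0.61 (limma adjusted p = 0.029), -0.52 (0.00302) and -0.46 (0.00055), 1 higher and 2 lower against 6.95% and 12.9% of all genes. Leaving out replicate 1 of BBX32-10 HL, 2 rose and 0 fell in BBX32-10, against 13.0% and 8.29% of all genes. PHYA was the other that rose, by 0.40 (limma adjusted p = 0.00423).

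Among genes for kinases and ubiquitin ligase subunits that act on PIF proteins, 15 of 17 passed the filter. In Col-0, 8 rose and 3 fell in HL, against 30.0% and 21.6% of all genes, with a median of 0.25 beside 0.05. SPA3, a partner of the COP1 ubiquitin ligase, rose by 0.90 (limma adjusted p = 7.5e-08), SPA4 by 0.67 (2.0e-05) and the photoregulatory kinase gene PPK1 by 0.61 (5.3e-07). In BBX32-10, limma called 0 of the 15 in HL, against 10.7% of all genes that rose and 8.85% that fell. Of the 15, 7 had an unadjusted p under 0.05. The share of all genes at that threshold was not counted, so this count cannot be read as a trait of the list. Without replicate 1 of BBX32-10 HL, 1 rose and 2 fell, against 13.0% and 8.29% of all genes. In the interaction of BBX32-10 with HL, 0 had a higher and 6 a lower change than Col-0, against 6.95% and 12.9%, led by SPA3 at -1.02 (limma adjusted p = 2.6e-05), SPA4 at -0.90 (0.00032) and COP1 at -0.45 (0.0023). Without replicate 1 of BBX32-10 HL 2 were higher and 6 lower, against 11.8% and 15.3%. SPA3 and SPA4 were already higher in BBX32-10 in LL, by 0.75 (limma adjusted p = 1.5e-06) and 0.63 (6.9e-05). In hy5-2, 5 rose and 3 fell in HL, against 23.1% and 20.4%.

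Among 10 partners and repressors of PIF activity, all passed the filter, but PAR1, an atypical bHLH inhibitor, did so only through Col-0 LL, at 1.17 to 1.69 FPKM, and is not counted. Of the other 9, 2 rose and 3 fell in HL in Col-0, against 30.0% and 21.6% of all genes. HMR, which is needed for phytochrome-dependent PIF degradation, rose by 1.06 (limma adjusted p = 1.6e-05), from 28.5 ± 3.35 to 60.2 ± 4.76 FPKM, and the DELLA gene RGL2 by 0.91 (1.5e-06). The DELLA gene GAI fell by 0.67 (limma adjusted p = 0.0018). In BBX32-10, 3 were higher and 1 lower than Col-0 in LL, against 25.8% and 16.7%, led by PAR2, another atypical bHLH inhibitor, at -0.97 (limma adjusted p = 9.4e-07) and the brassinosteroid factor gene BES1 at 0.87 (2.4e-05). In HL PAR2 was lower by -1.14 (limma adjusted p = 7.2e-07) and RGL1 higher by 0.76 (0.00303), or by -1.18 and 0.97 without replicate 1 of BBX32-10 HL. In hy5-2, 0 were higher and 1 was lower than Col-0 in HL, HMR by -0.68 (limma adjusted p = 0.028), against 0.349% and 2.06%.

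Of 6 greening genes that PIFs are known to repress in dark-grown seedlings, 0 rose and 4 fell in HL in Col-0, against 30.0% and 21.6% of all genes. HEMA1, which starts tetrapyrrole synthesis, fell by 0.77 (limma adjusted p = 2.6e-07), GLK2 by 0.56 (1.0e-05) and GUN5 by 0.43 (0.0021). In BBX32-10, 0 rose and 5 fell in HL, against 10.7% and 8.85%, or 4 fell without replicate 1 of BBX32-10 HL, against 8.29%. In hy5-2 0 rose and 3 fell, against 23.1% and 20.4%. In LL, BBX32-10 had 3 of the 6 higher and 1 lower than Col-0, against 25.8% and 16.7%, among them GUN5 at 0.71 (limma adjusted p = 2.1e-05) and GLK1 at 0.41 (0.0036).

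**Figure D4:**
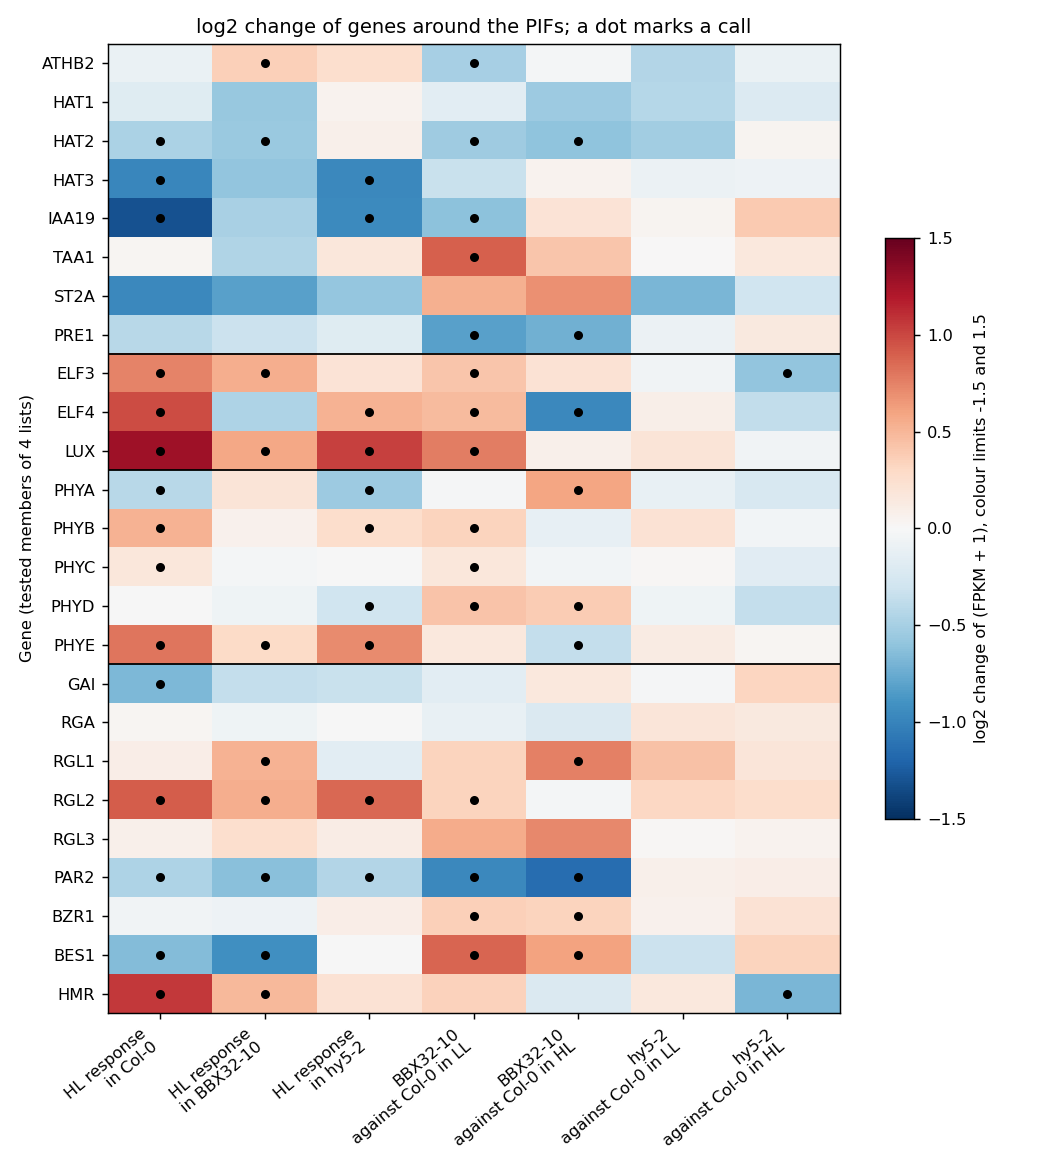
Log2 change of FPKM + 1 (colour) of the tested genes of 4 lists around the PIFs, without IAA29 and PAR1 (y axis), in 7 comparisons (x axis), with a dot for each call at an adjusted p under 0.05. From top to bottom the blocks are the shade and auxin genes, the evening complex, the phytochromes, and the partners and repressors, and LUX has the deepest red (1.27) and IAA19 the deepest blue (-1.31).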

How the data were processed

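Polyadenylated RNA of leaves was copied from random primers and sequenced, per the labels' protocols. The authors deposited FPKM for 34218 genes, already scaled to gene length and library total. The submitters' processing notes name CASAVA, HISAT2 2.0.5, HTSeq 0.6.1, DESeq2 1.20.0, DESeq and the build TAIR10, with no role or order. Gene lengths and strand use are not given in the sources used here.

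From these values, fragments were recovered with the mean annotated transcript length of TAIR10.1 (32548 gene IDs matched). All 17788 tested genes gave whole fragments to within 0.05, 1473 of them only with another whole-number length. No 2 replicates agreed within counting noise (chi-square per degree of freedom 15.5 to 246.9 over 36 pairs). FPKM were transformed as log2(FPKM + 1), which understates changes of low genes, and genes with at least 1 FPKM in at least 4 libraries were fitted in limma 3.58.1 (R 4.3.3, trend) with 6 group means over all 24 libraries. P-values are two-sided and were adjusted by Benjamini and Hochberg's method, separately for 9 comparisons. The procedure was tested on simulated data.

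The 9 genes were always named. For each pathway list up to 3 called genes with the largest changes were named per comparison discussed, and for each tested member up to 3 genes with the highest correlation. Members and lists were chosen with earlier results of these data known. Listed genes with fewer than 4 libraries at 1 FPKM outside their highest group (IAA29, PAR1 and bHLH23) were set aside from the counts. They stayed in the fit and in the adjustment of p-values, and the rule was added after their values were seen. The rule was not applied to the members. PIL1, with 2 such libraries outside its highest group, would meet it and was kept in the members' counts and medians. A blastn 2.17.0 search for similar transcripts (at least 90% identity over 100 bases) found none beyond the genes that the annotation shows as overlapping. Counting intervals and floors cover counting error only. The alternatives tried were limma voom on recovered fragments, leaving out each library, blocking on the replicate number, fitting only the compared groups, rescaled libraries (factors 0.869 to 1.14), a 2-fold requirement, no filter, a filter on the mean FPKM (at least 5) and a pseudocount of 0.1.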

Additional observations from a re-analysis of the deposited data

Results flagged for a closer look

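Of 54 groups of 4 libraries (9 genes in 6 groups), 7 held a library far from the other 3. For values spread evenly around a mean chance gives about 1 in 20, which does not apply to the 3 groups of PIF6 among them, where 3 libraries tie at 0. PIF4 in BBX32-10 LL replicate 4 was at 59.0 FPKM, against 44.0 to 46.0 in the others. PIF5 in Col-0 HL replicate 2 was at 36.2 FPKM, against 33.5 to 33.9. PIF7 in Col-0 LL replicate 1 was at 20.6 FPKM, against 23.3 to 23.7. PIF8 in Col-0 HL replicate 4 was at 37.5 FPKM, against 32.9 to 33.7. The other 3 were PIF6, listed at 0 in the rest of the group, at 0.0176 FPKM in Col-0 HL replicate 4, 0.0140 in BBX32-10 HL replicate 3 and 0.0439 in hy5-2 LL replicate 3, which are 1, 1 and 3 fragments.

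The HL change differed between a line and Col-0 in 4 tests of the interaction with limma. For BBX32-10 the difference was 1.17 for PIF4, 0.45 for PIF5 and -1.81 for PIF8. For hy5-2 it was -1.36 for PIF8. Each was called in all 16 fits that left out 1 library.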

How the results depend on the processing

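The 7 tested genes and 9 comparisons were recomputed under the alternatives. Of these values, 1064 kept their side of the threshold, 31 lost a call, 7 gained one and 0 changed direction while called. Values that were not called could change direction. PIF3 in HL in hy5-2 went from 0.07 to -0.09 without replicate 4 of hy5-2 LL. The further 2-fold requirement left 3 members called for the HL response of Col-0, 0 for that of BBX32-10 and 1 for that of hy5-2. It left 1 member for BBX32-10 against Col-0 in LL and 0 for the same contrast in HL. Of all tested genes it left 346 higher and 776 lower in LL, and 223 and 398 in HL. A fit of only the libraries compared left 1 member for BBX32-10 against Col-0 in HL, where 765 of all tested genes were higher and 1175 lower. With 1 library left out, the number of members called was 5 to 6 for HL in the wild type, 2 to 4 in BBX32-10 and 5 to 5 in hy5-2. The 6 came without replicate 3 of Col-0 HL, where 5160 of all tested genes rose and 3497 fell. The 4 came without replicate 4 of BBX32-10 HL, where 2022 rose and 1588 fell. The number of members was 3 to 4 for BBX32-10 against Col-0 in LL and 1 to 5 in HL (5 without replicate 1 and 1 without replicate 4 of BBX32-10 HL). In that HL contrast 3479 of all tested genes were higher and 2793 lower without replicate 1, and 1228 and 1671 without replicate 4. For hy5-2 against Col-0 the number of members was 0 to 0 in LL and 1 to 1 in HL. For the interactions it was 3 to 4 (BBX32-10) and 1 to 1 (hy5-2). The cause of these changes was not tested. Limma voom on the recovered fragments called 5244 genes higher and 3771 lower in HL in Col-0, and as many members as the log2 fit in each of the 9 comparisons. Depth limits HFR1, PIL1 and PIF6, which rest on few fragments, and PIF6 also overlaps other genes over most of its span.

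Taken over all pairs, same-numbered libraries of different groups did not deviate together (r from -0.53 to 0.47, median -0.033, and 11 of 60 best with their own number). The numbers were therefore not treated as pairs. Between Col-0 HL and hy5-2 HL r was 0.47, -0.07, 0.21 and 0.31 in the order of the numbers. Between Col-0 HL and BBX32-10 HL it was -0.29, -0.12, -0.53 and 0.05. Whether any 2 groups share batches was not tested. With the replicate number as a block, 3 members instead of 4 were called for BBX32-10 against Col-0 in LL, PIL1 being lost, and 5, 3, 5, 2, 0, 1, 3 and 1 in the other comparisons, as without it. For BBX32-10 against Col-0 in LL the block left 4430 of all tested genes higher and 2875 lower, instead of 4589 and 2974.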

Other observations

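Of 6 other bHLH genes close to the PIFs, 2 passed the filter, SPT and bHLH23. SPT, a growth repressor of cool-grown leaves and a factor in fruit development, reached 1 FPKM in 4 libraries each of Col-0 HL and BBX32-10 HL, 3 of hy5-2 HL and 1 of hy5-2 LL. It passed the filter through its HL libraries, so its values are a description. Its mean went from 0.446 ± 0.0729 in LL to 1.56 ± 0.616 FPKM in HL in Col-0 (SD, n = 4), from 0.684 ± 0.0893 to 1.86 ± 0.586 in BBX32-10 and from 0.605 ± 0.269 to 1.39 ± 0.455 in hy5-2. bHLH23 reached 1 FPKM in 4 libraries, of which 0 were of BBX32-10. Its means in Col-0 were 0.977 ± 0.214 FPKM in LL and 0.844 ± 0.290 in HL, and in BBX32-10 0.401 ± 0.190 and 0.310 ± 0.376.

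The neighbours of PIF8 on chromosome 4 were read for comparison with it, chosen for their position after the values of PIF8 were seen. AT4G00040, which ends at 16079, had group means of 16.9 FPKM in Col-0 LL, 25.0 in Col-0 HL, 30.3 in BBX32-10 LL, 28.3 in BBX32-10 HL, 13.3 in hy5-2 LL and 21.8 in hy5-2 HL. AT4G00060 (MEE44), which starts at 21351, stayed between 6.34 and 8.17 FPKM in all 6 groups.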
